A study of Mus musculus with 12 samples.

Results

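The Mu-class glutathione S-transferases are the 7 genes Gstm1 to Gstm7, of 24062 genes counted in the liver RNA-seq tables of this experiment. The rule takes them by gene symbol. Livers came from 12 female C57BL/6J mice, obtained at 6 weeks of age and acclimated for 2 weeks. Chow was replaced by the control diet in both groups for the last 3 days before the treatment. Thereafter 6 of the sequenced mice stayed on that diet, and 6 received a matched diet that delivered BIBB-515 at 55 mg/kg. The diets were fed for 10 days, a length the labels do not state. BIBB-515 inhibits lanosterol synthase, the enzyme of cholesterol synthesis encoded by Lss. Replicates 1 to 6 of the control diet and 6 to 11 of BIBB-515 were sequenced, from groups of 11. A single dose of a single compound was given, so an effect of lower lanosterol synthase activity and any other effect of the compound cannot be told apart here. Gene counts summed to 22764819 in the shallowest library and 31058370 in the deepest. The liver label was checked against 6 hepatocyte genes, whose summed level was 106330 to 160781 CPM (read counts divided by the library total, scaled between libraries by TMM) in the 12 mice. The 5 adipocyte markers together reached at most 0.161 CPM.

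Mu-class glutathione S-transferases are cytosolic enzymes that act as dimers. They join the thiol of glutathione to electrophilic compounds, which include drug metabolites, epoxides and products of lipid peroxidation. The conjugates are more water soluble, leave the cell through export pumps of the ABC family and are trimmed to mercapturic acids. In the liver the family belongs to phase II of drug metabolism. Several of its genes are known to respond to foreign compounds through the nuclear receptors CAR and PXR and through the stress-responsive factor NRF2.

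The 7 genes lie side by side on mouse chromosome 3 (mm10). In map order they are Gstm5, Gstm7, Gstm6, Gstm3, Gstm2, Gstm1 and Gstm4, from 107895854 to 108044859. Gstm5 is on the plus strand and the other 6 are on the minus strand. Each main transcript in the GENCODE annotation of this build has 8 exons. The 6 internal exons, 531 bases in all, have the same lengths in every member. Exon 5, which is coding along its 101 bases, is shown because it separates Gstm1 from Gstm3, the pair on which most of the results below turn. Capitals mark bases that differ from Gstm1, and each sequence runs 5′ to 3′ along the gene's own strand.
Gstm1: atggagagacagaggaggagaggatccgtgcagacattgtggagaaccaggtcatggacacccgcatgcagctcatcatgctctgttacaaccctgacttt
Gstm2: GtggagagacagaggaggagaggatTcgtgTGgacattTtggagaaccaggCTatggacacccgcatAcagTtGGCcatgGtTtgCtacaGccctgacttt
Gstm3: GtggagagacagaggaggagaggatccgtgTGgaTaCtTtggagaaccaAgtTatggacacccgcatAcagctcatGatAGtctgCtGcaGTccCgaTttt
Gstm4: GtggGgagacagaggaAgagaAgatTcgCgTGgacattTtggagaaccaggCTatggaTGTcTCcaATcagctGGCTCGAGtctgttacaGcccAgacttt
Gstm5: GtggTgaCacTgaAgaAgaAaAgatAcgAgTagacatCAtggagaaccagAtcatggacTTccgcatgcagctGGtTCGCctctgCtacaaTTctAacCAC
Gstm6: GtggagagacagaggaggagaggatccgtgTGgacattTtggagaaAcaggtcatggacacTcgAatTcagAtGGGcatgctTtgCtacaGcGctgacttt
Gstm7: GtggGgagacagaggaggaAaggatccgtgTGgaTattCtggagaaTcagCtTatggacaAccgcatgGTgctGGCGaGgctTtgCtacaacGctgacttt
These exons lie at chr3:108016328-108016428 for Gstm1, chr3:107985049-107985149 for Gstm2, chr3:107967575-107967675 for Gstm3, chr3:108043324-108043424 for Gstm4, chr3:107897462-107897562 for Gstm5, chr3:107942133-107942233 for Gstm6 and chr3:107930274-107930374 for Gstm7. Exon 5 of Gstm3 differs from that of Gstm1 at 18 of 101 bases. Exons 6 and 7 of this pair differ at 1 base each. Over the internal exons Gstm1 and Gstm3 were 91.0% identical, with 48 differences, the closest of the 21 pairs. Gstm5 was the most distant member, with identities of 70.8% to 74.2% to the others.

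This likeness bears on the counts, since reads that fit several places were not counted. Of the 50-base words of the transcript, 23.2% in Gstm1 and 28.8% in Gstm3 also occur in the transcript of another gene, a member or not. The share was 11.8% in Gstm6 and 9.36% in Gstm2. It was 0 of 1658 words in Gstm4, 0 of 896 in Gstm5 and 0 of 1328 in Gstm7. Words that start in the last exon were nearly all particular to their gene, with 0.84% shared in Gstm1 and 0.72% in Gstm3. Words of 100 bases were shared less, at 7.73% in Gstm1, 13.8% in Gstm3, 2.47% in Gstm6 and 0.62% in Gstm2. The read length is not given, so which word length is nearer to it is not known. The counts of Gstm1 and Gstm3, and to a lesser degree those of Gstm6 and Gstm2, can therefore miss a part of their reads. By how much was not measured. Levels and shares compared between members below can be affected by such unequal loss. The exon values below include the last exons, where the sequences are distinct. Words of 50 bases that start in exon 5 are shared with no other member in Gstm1 or Gstm3. Of these words, 77.2% in Gstm1 and 17.8% in Gstm3 nevertheless occur in genes outside the family. In Gstm3, 79.0%, 100% and 82.9% of the words that start in exons 2, 3 and 4 occur in another gene.

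The Mu-class family as a whole was 5.95 times as high in the BIBB-515 mice. Its 7 genes together had 1538 ± 416 CPM in the control mice and 9151 ± 1232 CPM in the BIBB-515 mice (SD, n = 6 each). The lowest sum on BIBB-515 was 7586 CPM and the highest sum on the control diet was 2232 CPM, so the groups did not overlap. As a share of all reads on genes, the family took 0.109% to 0.223% in the control mice and 0.774% to 1.09% in the BIBB-515 mice. Gstm1 accounted for 55.1% of the family's increase in CPM and Gstm3 for 40.3%. The other 5 genes made up the rest, and Gstm2 was the largest of them at 2.69%.

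Across the members, 6 of 7 were higher on BIBB-515 at an FDR under 0.05 (edgeR quasi-likelihood test, adjusted over all 12481 tested genes). All 7 passed the filter on low counts. Of all tested genes, 13.7% were called in either direction, 7.18% higher and 6.48% lower. Every BIBB-515 mouse was above every control mouse in 6 of the 7 genes, beside 4.35% of all tested genes, and below in none, beside 2.72%. The median log2 fold change was 1.19 over the 7 members and -0.014 over all tested genes. The members ranged from a fold of 52.7 in Gstm3 to one of 1.05 in Gstm7.

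Gstm3 had the largest difference of the family. In the control mice its level ran from 31.6 CPM through a median of 51.4 to 109.7 CPM. In the BIBB-515 mice it ran from 2433 CPM through a median of 3075 to 3786 CPM. The lowest BIBB-515 mouse had 22.2 times the level of the highest control mouse. The means were 59.4 ± 28.4 and 3128 ± 503 CPM (SD, n = 6 each). Gstm3 rose by a log2 fold change of 5.72 ± 0.29 (SE; edgeR quasi-likelihood FDR = 1.48e-08), which was the 5th largest rise among the 12481 tested genes. By mean CPM per kb of exon it moved from rank 1249 to rank 23 of all 24062 genes.

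Gstm1 had the highest level of the 7 per kb of exon on either diet. In the control mice it ran from 804 CPM through a median of 1059 to 1692 CPM. In the BIBB-515 mice it ran from 4528 CPM through a median of 5205 to 6447 CPM. The groups were well apart, although the highest control mouse had 2.11 times the level of the lowest. The means were 1153 ± 325 and 5347 ± 696 CPM, with a log2 fold change of 2.21 ± 0.17 (edgeR FDR = 1.00e-06). Gstm1 moved from rank 61 to rank 10 of all genes by mean CPM per kb of exon.

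Gstm2 and Gstm4 rose by smaller amounts. Gstm2, whose human counterpart is known for conjugating oxidized catechols, ran from 64.6 through 86.3 to 148 CPM in the control mice and from 274 through 288 to 372 CPM in the BIBB-515 mice (lowest, median, highest). Its log2 fold change was 1.65 ± 0.18 (edgeR FDR = 4.16e-05). Gstm4 ran from 48.1 through 60.2 to 79.0 CPM and from 124 through 137 to 156 CPM. Its log2 fold change was 1.19 ± 0.10 (edgeR FDR = 4.60e-06). The diets did not overlap in either gene. Gstm4 had the smaller fold and also the smaller spread between mice.

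Gstm6 rose by a log2 fold change of 0.79 ± 0.11 (edgeR FDR = 4.63e-04). Its level ran from 63.4 through 80.4 to 105.1 CPM in the control mice and from 129.8 through 142 to 169 CPM in the BIBB-515 mice, again with no overlap. Gstm5, the family's divergent member, is known from brain and testis and was the lowest of the 7 per kb of exon in these livers. It ran from 11.3 through 12.8 to 14.307 CPM in the control mice and from 14.308 through 15.0 to 17.8 CPM in the BIBB-515 mice. The groups all but touched. Its log2 fold change of 0.26 ± 0.08 had an edgeR FDR of 0.0404, and that call was lost in 9 of the 12 fits that left out 1 mouse, with FDR of up to 0.0892.

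Gstm7 did not pass the threshold. It ran from 62.4 through 73.5 to 83.9 CPM in the control mice and from 69.4 through 72.3 to 92.8 CPM in the BIBB-515 mice, so the median was slightly lower on BIBB-515 and the ranges overlapped broadly. The log2 fold change was 0.07 ± 0.09 (edgeR FDR = 0.628), with a 95% interval from -0.12 to 0.26. The upper bound lies below the fold of each of Gstm1, Gstm2, Gstm3, Gstm4 and Gstm6. In two-sided exact permutation tests of log2 CPM over the 924 labelings of the 12 mice, Gstm7 gave p = 0.470, and the other 6 genes each gave p = 0.00216, the smallest that 6 mice against 6 allow.

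**Figure D1:**
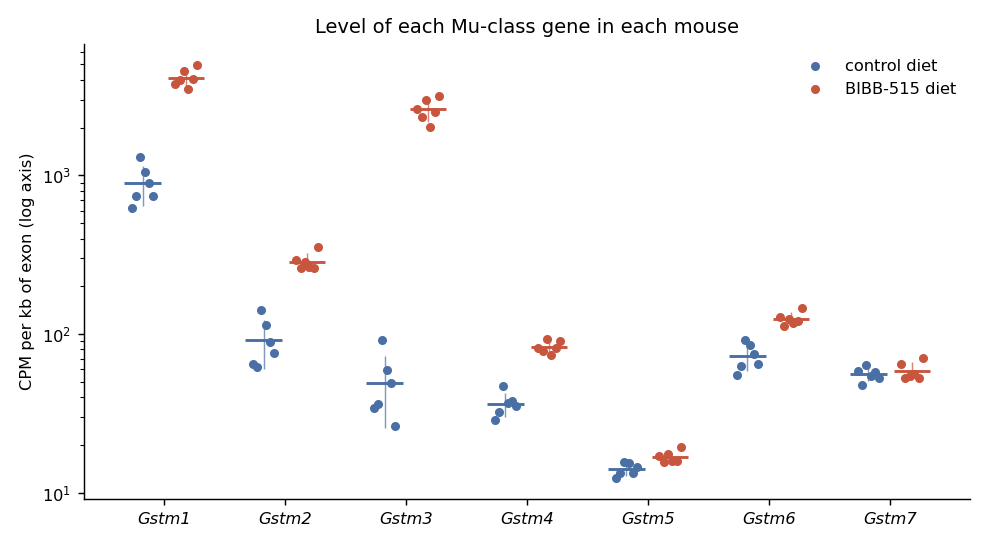
Level of each Mu-class gene in CPM per kb of exon on a log axis. Each point is 1 mouse, horizontal lines are means and vertical lines are SD (n = 6 per diet). Gstm3 shows the widest gap between diets, from a mean of 49.4 to 2603, while the points of Gstm7 overlap.

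Levels of different genes were compared per kb of exon. On the control diet Gstm1 stood far above the rest, with 891 ± 252 CPM per kb (SD, n = 6) and no overlap with the next gene. Gstm2 followed with 91.2 ± 31.1, Gstm6 with 72.3 ± 14.0, Gstm7 with 56.0 ± 5.63, Gstm3 with 49.4 ± 23.6 and Gstm4 with 36.4 ± 6.25 CPM per kb. Each neighboring pair in this stretch of the order overlapped over the 6 mice, so their order is not fixed by these data. Across that stretch, Gstm2, Gstm6 and Gstm7 lay above Gstm4 without overlap. Gstm5 was below all of them at 14.1 ± 1.32 CPM per kb, and did not overlap with Gstm4. On BIBB-515 the order was Gstm1 with 4132 ± 538 CPM per kb, then Gstm3 with 2603 ± 418, Gstm2 with 287 ± 36.0, Gstm6 with 125 ± 11.7, Gstm4 with 83.1 ± 7.17, Gstm7 with 58.9 ± 7.42 and Gstm5 with 16.9 ± 1.49. No neighbors in this order overlapped. Gstm3 went from the 5th place to the 2nd, and Gstm4 stood above Gstm7.

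The division of the family's reads changed accordingly. Gstm1 held 72.3% to 75.8% of the family's counts in the control mice and 56.0% to 60.2% in the BIBB-515 mice, so its share was lower although its level was higher. The share of Gstm3 went from 3.72 ± 0.80% to 34.1 ± 1.58% (SD, n = 6 each). The 5 other members all held smaller shares on BIBB-515. Gstm2 had 6.13 ± 0.57% on the control diet and 3.29 ± 0.27% on BIBB-515. Gstm6 had 5.50 ± 0.40% and 1.59 ± 0.14%, and Gstm4 had 4.04 ± 0.46% and 1.53 ± 0.09%. Gstm7 had 3.76% to 6.86% in the control mice and 0.704% to 0.977% in the BIBB-515 mice, although its level did not pass the test, and Gstm5 had 0.641% to 1.04% and 0.158% to 0.189%. For none of the 7 genes did the shares of the diets overlap. Shares are described without a test, because each depends on all members. Gstm1 and Gstm3 together held 76.0% to 80.7% of the family's counts on the control diet, and 91.8% to 93.2% on BIBB-515.

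**Figure D2:**
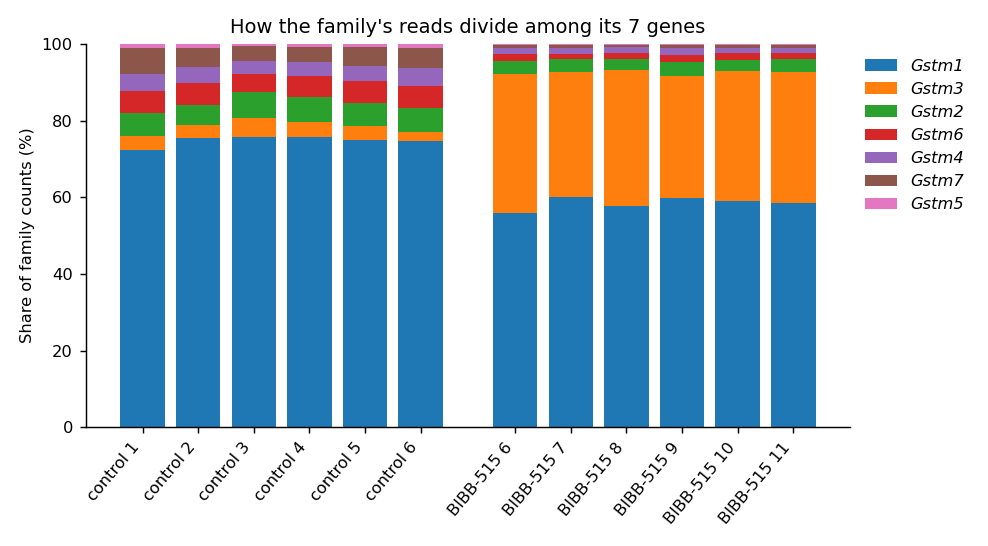
Share of the summed Gstm1 to Gstm7 counts held by each gene, in percent, with 1 bar per mouse. The segment of Gstm3 widens from at most 4.92% in the control mice to at least 32.1% in the BIBB-515 mice, and that of every other gene narrows.

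Whether a pair of paralogs moved by different amounts was tested on the log2 ratio of their levels within each mouse. The diet difference of that ratio gave p under 0.05 in 21 of 21 pairs (two-sided exact permutation test, unadjusted), and the smallest possible p of 0.00216 in 19 of them. For Gstm3 against Gstm1 the gap was large. The log2 ratio of Gstm1 to Gstm3 was 4.36 ± 0.32 in the control mice and 0.78 ± 0.10 in the BIBB-515 mice (SD), a difference of -3.58 ± 0.14 (SE). Gstm1 also rose more than Gstm2, by 0.54 ± 0.08 on the log2 scale. The ratio of Gstm2 to Gstm4 differed by 0.50 ± 0.12 (exact permutation p = 0.00433), with ranges that overlapped between diets. The weakest case was Gstm5 against Gstm7, where the log2 ratio differed by 0.19 ± 0.08 (exact permutation p = 0.0476, and p = 0.0801 with the table of primary alignments). The pairs share members, so the 21 tests are not independent.

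The exon counts describe whether a whole gene moved or only a stretch of it. In Gstm1 and Gstm3 the exon levels add up to more than the level of the gene. A read that spans a junction can count on each exon it covers, so the exons are not separate measurements. All 8 exons of Gstm1, Gstm2, Gstm3 and Gstm6, and all 8 exons of Gstm4 that passed the filter, were above every control mouse in every BIBB-515 mouse, beside 2.75% of the 85123 exon records tested. No exon of any member lay below, beside 1.03% of records. In Gstm3 the folds of the exons ran from 51.4 to 57.7. In Gstm1 they ran from 4.53 to 4.69. The last exons, whose sequence is distinct, had folds of 51.4 in Gstm3 and 4.66 in Gstm1, close to those of exons 6 and 7 that this pair shares almost base for base. The printed exon 5, where the pair differs most, had a fold of 57.7 in Gstm3 from 7.69 to 444 CPM. Exon folds ran from 2.98 to 3.40 in Gstm2, from 2.20 to 2.63 in Gstm4 and from 1.67 to 1.87 in Gstm6. No exon of Gstm5 or Gstm7 was free of overlap between diets, with folds of 1.02 to 1.30 and 0.99 to 1.12. A record of 15 bases at the start of Gstm4 had too few reads to pass the filter.

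**Figure D3:**
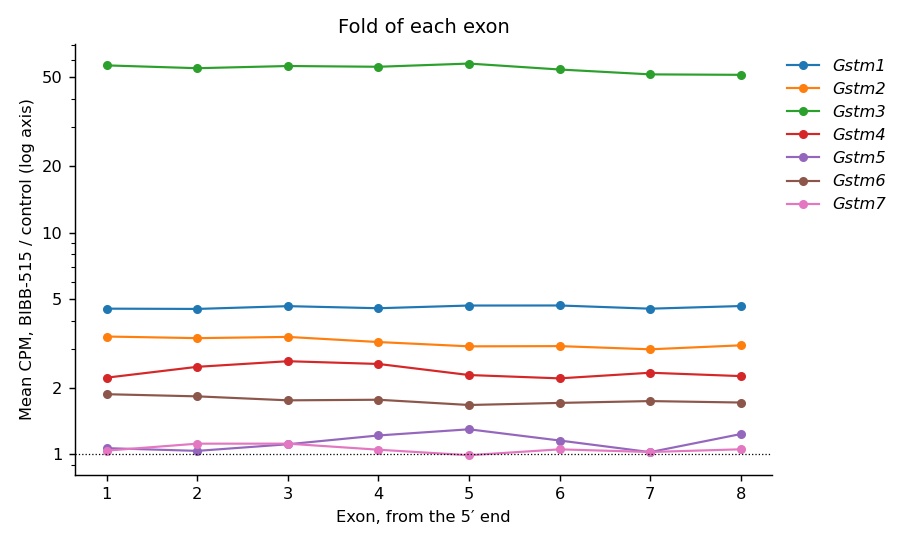
Ratio of mean exon CPM on BIBB-515 to that on the control diet, on a log axis, for the 8 exons of each gene that passed the filter. The lines run nearly flat, with Gstm3 between 51.4 and 57.7 and with Gstm5 and Gstm7 near 1.

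The genes around the cluster were read next. Of 11 other genes within 200 kb of the 7 genes, 8 were tested, none was higher at an FDR under 0.05 and 1 was lower, beside 7.18% and 6.48% of all tested genes, and 8 genes are too few to be read against those shares. That gene was Gnai3, which encodes an inhibitory G protein subunit, with 92.5 ± 8.59 CPM on the control diet and 77.2 ± 2.64 CPM on BIBB-515 (log2 fold change -0.26 ± 0.06, edgeR FDR = 0.0158). The genes next to the cluster on either side were 4933431E20Rik at -0.42 ± 0.14 (edgeR FDR = 0.0603) and Ampd2, an AMP deaminase, at -0.08 ± 0.09 (edgeR FDR = 0.556). Csf1, Gnat2, Amigo1, Cyb561d1 and Atxn7l2 had log2 fold changes between -0.30 and 0.02, none past the threshold. Eps8l3, Gpr61 and Sypl2 had too few reads for a test. 4933431E20Rik runs on the opposite strand across the start of Gstm5. The counts ignore strand and leave out reads on both genes, so reads there cannot be assigned, and Gstm5 had 9.89% to 20.3% more reads per mouse in the table that keeps such reads.

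**Figure D4:**
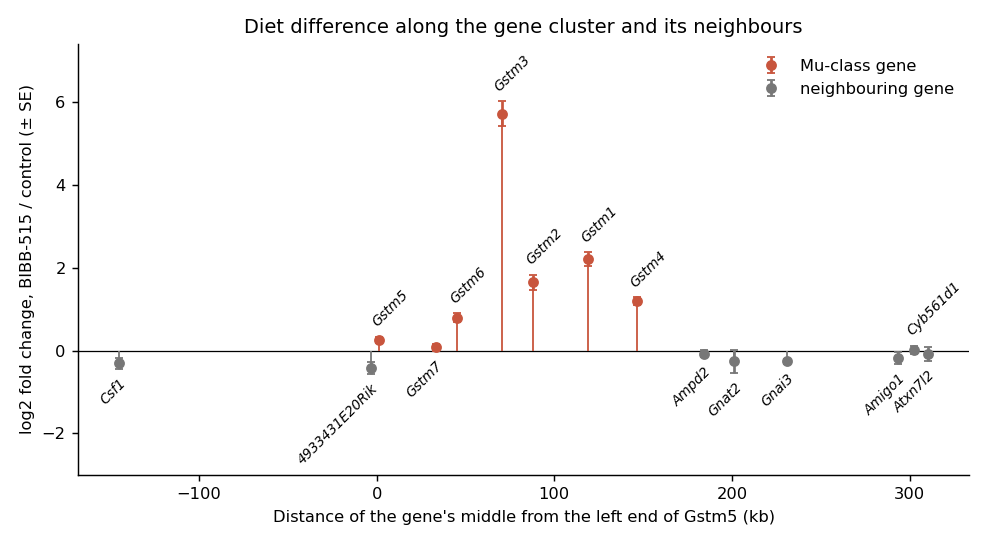
Log2 fold change with SE (n = 6 per diet) of each Mu-class gene and each tested neighbor, against the distance of the gene's middle from the left end of Gstm5 in kb. Gstm3 stands in the middle of the cluster at 5.72, the members at the left end lie near 0, and the neighbors lie between -0.42 and 0.02.

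The promoters of Gstm3 and Gstm5 are printed because Gstm3 had the largest fold and Gstm5 held the only matches to the motifs of NRF2, CAR and PXR. RefSeq windows (GRCm38.p6) run from 250 bases before to 50 bases after the start site. All 7 members had one. Both strands were searched for the core of the NRF2 element, TGACNNNGC, and for AGGTCA and AGTTCA, the hexamers that CAR and PXR recognize in pairs. Capitals mark matches to these 3. The core of the AHR element, GCGTG, and the general promoter motifs TATAAA and CCAAT were searched in the same way.
Gstm3, chr3:107969125-107969424, minus strand: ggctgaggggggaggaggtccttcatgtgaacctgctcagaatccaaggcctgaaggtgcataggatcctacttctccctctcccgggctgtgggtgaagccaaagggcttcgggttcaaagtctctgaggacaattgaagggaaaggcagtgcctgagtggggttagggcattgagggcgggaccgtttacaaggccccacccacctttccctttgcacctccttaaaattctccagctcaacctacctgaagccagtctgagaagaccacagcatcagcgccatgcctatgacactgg
Gstm5, chr3:107895604-107895903, plus strand: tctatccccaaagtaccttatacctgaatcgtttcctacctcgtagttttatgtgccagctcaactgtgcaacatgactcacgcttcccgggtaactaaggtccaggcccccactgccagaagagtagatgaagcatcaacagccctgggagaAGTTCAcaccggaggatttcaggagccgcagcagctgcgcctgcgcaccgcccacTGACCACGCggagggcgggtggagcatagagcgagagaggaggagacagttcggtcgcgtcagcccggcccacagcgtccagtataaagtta
The Gstm5 window held 1 NRF2 core, 42 bases before the start site, and 1 AGTTCA, 97 bases before it. The windows of Gstm1, Gstm2, Gstm3, Gstm4, Gstm6 and Gstm7 held none of these 3 motifs. GCGTG occurred in the windows of Gstm1 and, on the minus strand, at 2 places in Gstm5, at 1 of which it overlaps the NRF2 core. TATAAA occurred in Gstm5 and Gstm7, and CCAAT in Gstm1, Gstm2, Gstm4, Gstm6 and Gstm7. Of 32544 promoter windows of the same length, 12.4% held the NRF2 core, 16.2% AGGTCA, 14% AGTTCA, 32.6% GCGTG, 13.6% TATAAA and 37.4% CCAAT. No match says only that these letters are not in the window, and more distant sequence was not searched. The RefSeq start sites of Gstm2, Gstm6 and Gstm7 lie 15 to 72 bases from the gene start in the count tables' annotation, and the other 4 coincide with it.

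Among the other glutathione S-transferases, 10 of 15 tested genes were higher and none was lower (edgeR FDR under 0.05, beside 7.18% of all tested genes higher). The 5 alpha-class genes were all called, but Gsta1 and its close copy Gm3776 passed the filter only through the BIBB-515 mice. A gene that enters this way is likely to be called higher. Both are included in the 10 of 15 and in the 5, so those counts are a description. Gsta1 had at most 0.398 CPM in the control mice and 12.4 to 26.2 CPM in the BIBB-515 mice, and Gm3776 had 0 to 0.131 CPM and 2.58 to 5.84 CPM. Their fitted folds rest on control levels near 0 and are not given, and the division of reads between such copies is uncertain. Gsta2 went from 2.01 ± 1.06 to 21.7 CPM with a log2 fold change of 3.44 ± 0.26. Gsta4, known for conjugating lipid peroxidation products, rose by 0.95 ± 0.10, and Gsta3 rose by 0.57 ± 0.07 from 942 to 1394 CPM.  Of the other classes, Gstp1 rose by 0.77 ± 0.10, Gstt3 by 1.19 ± 0.12 and Gstt2 by 0.54 ± 0.13. Mgst3 and Gsto1, 2 of the 6 remaining genes tested, rose by 0.57 ± 0.10 and 0.50 ± 0.09.

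**Figure D5:**
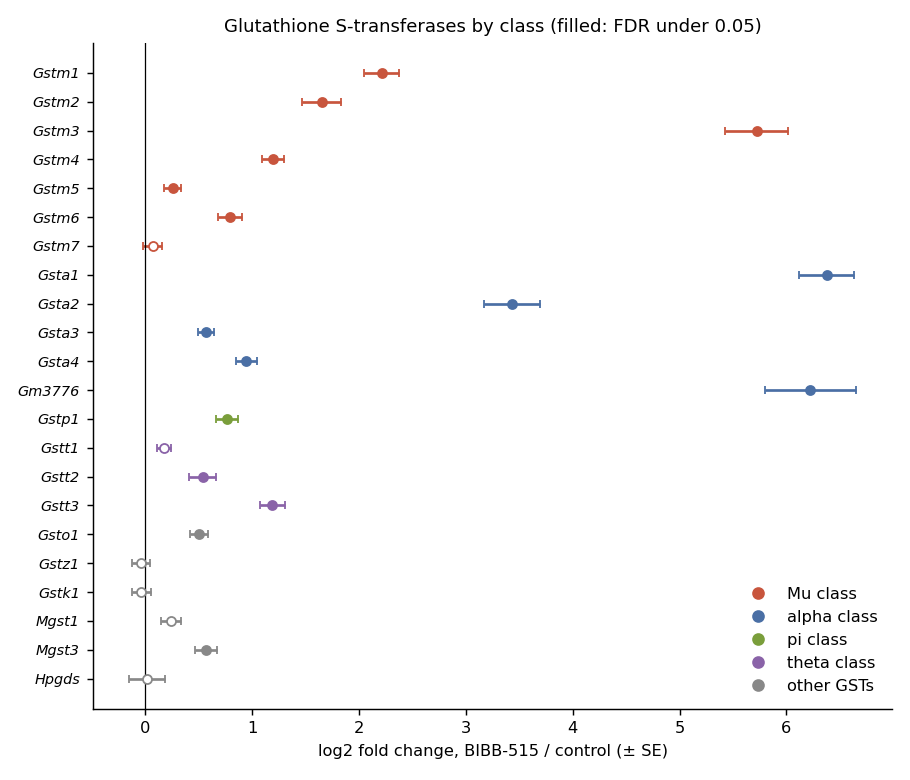
Log2 fold change with SE (n = 6 per diet) of the 7 Mu-class genes and of the 15 tested genes of the other glutathione S-transferase classes. Filled points passed an FDR of 0.05 in edgeR. Gstm3 lies at 5.72, the points of Gsta1 and Gm3776 rest on control levels near 0, and the genes of the last group lie at or below 0.57.

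Genes that supply and recycle glutathione were counted next. Of 4 tested genes of glutathione synthesis, only Cth, which makes cysteine from cystathionine, was called, at 0.58 ± 0.16 (edgeR FDR = 0.0286). Gclc and Gclm, the subunits of the rate-limiting ligase, had log2 fold changes of 0.18 ± 0.11 and 0.22 ± 0.10 and did not pass (edgeR FDR = 0.330 and 0.168). In glutathione recycling and peroxide removal 3 of 6 genes were higher, beside 7.18% of all tested genes. These were Gsr, the glutathione reductase, at 0.83 ± 0.07, Gpx4, the lipid peroxide peroxidase, at 0.78 ± 0.08, and Glrx at 0.24 ± 0.06. Gsr went from 46.9 ± 3.80 to 83.4 CPM with no overlap between diets.

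Of the 6 genes for export pumps of conjugates, 3 were higher, beside 7.18% of all tested genes. Abcc3, the basolateral pump, rose by 1.70 ± 0.18, Abcc4 by 0.87 ± 0.25 and Abcg2 by 0.40 ± 0.10. Abcc2, the canalicular pump for glutathione conjugates, had 0.28 ± 0.11 and did not pass (edgeR FDR = 0.104). Among 11 tested genes of conjugate and glutathione breakdown, Ggt6 was higher by 0.37 ± 0.10 and Chac2, a cytosolic glutathione cyclotransferase, was lower with -0.53 ± 0.10. The other 9 did not pass, beside 13.7% of all tested genes called in either direction.

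The regulators known to act on this family were measured as transcripts. Of 9 tested, only Mafg, a small Maf partner of NRF2, was called, at 0.27 ± 0.06 (edgeR FDR = 0.0129). Among all tested genes, 13.7% were called in either direction. Nr1i3, which encodes CAR, had 0.02 ± 0.12 (edgeR FDR = 0.929). Nr1i2, which encodes PXR, had 0.29 ± 0.10 (edgeR FDR = 0.0658). Nfe2l2, which encodes NRF2, had -0.03 ± 0.10 (edgeR FDR = 0.874). Its inhibitor Keap1 had 0.20 ± 0.08, the competing repressor Bach1 had 0.07 ± 0.09, and the shared partner Rxra had 0.07 ± 0.11. The receptor gene Ahr had 0.12 ± 0.10 and its partner Arnt had -0.16 ± 0.06. RNA levels do not show the activity of these proteins, which was not measured.

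Known target genes were counted beside the family. All 6 classic targets of CAR and PXR were higher, beside 7.18% of all tested genes. Cyp2c55 rose by 5.98 ± 0.26, Cyp2b10 by 3.98 ± 0.47, Ces2a by 3.53 ± 0.12 and Cyp3a11 by 3.24 ± 0.12, with median 3.39 over the 6. Cyp2b10, the usual marker of CAR, ran from 7.67 to 64.9 CPM in the control mice and from 340 to 547 CPM in the BIBB-515 mice. Of 8 tested classic targets of NRF2, 3 were higher, beside the same 7.18%. Ugdh rose by 2.11 ± 0.23, Nqo1 by 0.74 ± 0.16 and Srxn1 by 0.65 ± 0.09, while Gclc, Gclm, Hmox1, Txnrd1 and G6pdx did not pass. Hmox1 had 0.07 ± 0.16 and Txnrd1 0.05 ± 0.07. G6pdx had the largest difference of these 5, -1.43 ± 0.56 (edgeR FDR = 0.0998), with 77.6 ± 78.6 CPM on the control diet and 28.7 CPM on BIBB-515. These lists overlap in function and were chosen with earlier results in view, so their counts are a description. Lss itself had 78.8 ± 47.1 CPM on the control diet and 136 ± 26.1 CPM on BIBB-515 (edgeR FDR = 0.0854).

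Markers of cell types were set beside these results, because in bulk liver a change in the number of cells and a change in RNA per cell cannot be told apart. Hepatocyte markers were lower in 3 of 6 genes, namely Alb at -0.40, Ttr at -0.49 and Fabp1 at -0.68, and the list's summed level was 140442 to 160781 CPM in the control mice and 106330 to 120668 CPM in the BIBB-515 mice. The Mu-class genes moved the opposite way, and the part of this shift in their values was not tested. None of the tested cholangiocyte (6), endothelial (5) or Kupffer cell and leukocyte (6) markers was called, and their sums overlapped between diets. Among stellate cell markers 2 of 6 were lower, Lrat and Dcn. Of 6 pericentral hepatocyte genes 1 was higher and 3 were lower, and of 6 periportal genes 2 were higher and 1 was lower. Their summed levels overlapped between diets. These marker lists are too short to be read against the 7.18% of all tested genes higher and the 6.48% lower.

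Within a diet the members varied together from mouse to mouse. After each diet's mean was removed from log2 CPM, the 21 pairs of members had Pearson correlations of 0.44 to 0.95 over the 12 mice, with a median of 0.82. The pairs share libraries and scaling, so this is a description. Gstm2 and Gstm6 gave 0.95, Gstm1 and Gstm6 gave 0.94, and the pairs with Gstm7 gave 0.44 to 0.65. Control mouse 3 had the highest level of its diet in all 7 genes, and BIBB-515 mouse 11 had the highest level of its diet in 6 of them, all but Gstm4. Outside the family, the 3 genes most like Gstm1 by the same measure were Tecr at 0.89, Emilin1 at 0.89 and Osgep at 0.89. For Gstm3 they were Arhgdia at 0.86, Tm6sf2 at 0.86 and Rbmxl1 at 0.85. These are the highest values among all tested genes outside the family, of which 259 reached at least 0.7 with Gstm1. Of these 6 genes only Arhgdia differed between diets, with a log2 fold change of 0.36 (edgeR FDR = 0.0119). Because each diet's mean was removed, the likeness covers by construction only the variation among mice on the same diet, not the diet difference.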

How the data were processed

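The authors deposited, for each of the 12 mouse livers, whole-number counts of reads per gene and per exon. Per the file headers these were made with featureCounts from Subread 1.6.3 and a UCSC annotation of mm10, with no strand option and no multiply mapped reads. The submitters' processing notes also name STAR 2.5.3a. Library preparation and read length are not given in the sources used here. A second deposited table of primary alignments, which counts reads on overlapping genes for each gene, served as an alternative. Transcript tables were not used.

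Genes reaching 1 CPM in 2 or more of the 12 mice (12481 of 24062) were scaled by TMM and tested with the edgeR 4.0.16 quasi-likelihood test in R 4.3.3, diet being the only term, with Benjamini and Hochberg adjustment over all tested genes. Log2 CPM used a prior count of 0.5. CPM per kb used the table's exon length. Log2 ratios of a pair of members were compared by exact permutation over 924 labelings. Exon records are compared by range only. Sequences came from GENCODE M21 transcripts and from RefSeq. Coordinates are 1-based. All 7 members are named, with at most 4 called genes per pathway list, every regulator, the genes within 200 kb and the 3 genes most like Gstm1 and Gstm3. Gsta3, Hmox1, Txnrd1, G6pdx, Gclc, Gclm, Abcc2, Lss and the marker genes were added after their values were seen. The members and lists were chosen with earlier results of these data known. Labels give no batch, and p-values weigh the diet difference against the spread between mice. The paper states that mice shared cages, and the cage of each mouse was not part of the fit. Same-diet libraries differed by a chi-square of 12.1 or more per degree of freedom and all were kept as separate mice. Alternatives were DESeq2 1.42.0, limma-voom (limma 3.58.1), other scalings, filters and tables, and each mouse left out.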

Additional observations from a re-analysis of the deposited data

Results flagged for a closer look

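Among 98 groups of 6 values examined (members' CPM and shares, named pathway genes and library totals, each within a diet), 5 held a sample set apart by more than Dixon's 95% critical value of 0.625. Chance flags about 1 in 20 groups, or 4.9 of 98, so this number of flags is near what chance gives. Control mouse 1 had the lowest share of Gstm1 in the family's counts, 72.3% beside 74.6% in the next mouse, with a gap of 0.656 of the group's range. Control mouse 3, the mouse with the highest level of all 7 genes on its diet, had the lowest share of Gstm6, 4.71% beside 5.49%, with a gap of 0.732 of the range. BIBB-515 mouse 11 had the highest Gstm2 level, 372 CPM beside 305 CPM, with a gap of 0.683 of the range. BIBB-515 mouse 9 had the lowest Gsta2 level, 14.7 CPM beside 21.6 CPM, with a gap of 0.696 of the range. Control mouse 2 had the highest Nr1i2 level, 148 CPM beside 114 CPM, with a gap of 0.636 of the range. In each of the first 4 cases the mouse lay on its own diet's side of the gap between diets.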

How the results depend on the processing

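The calls of Gstm1, Gstm2, Gstm3, Gstm4 and Gstm6 were kept under each of the 7 other settings of scaling, test, filter and table and in each of the 12 fits without 1 mouse. Without 1 mouse the log2 fold change ran from 5.60 to 6.00 in Gstm3, from 2.13 to 2.36 in Gstm1 and from 0.72 to 0.88 in Gstm6. The number of members called higher was 5 or 6 in all of these fits, and Gstm5 made the difference. It lost its call without the filter on low counts (0.27, FDR = 0.0514) and in 9 of the 12 fits without 1 mouse, where its log2 fold change ran from 0.21 to 0.30. Gstm7 was called in none. The family's summed fold was 5.64 to 6.54 without 1 mouse. Per kb of exon the shares moved by more than 1 SD for 5 members in each diet, with the Gstm3 share at 3.93% and 35.5%. With the table of primary alignments the Gstm5 share on BIBB-515 was 0.192%, and the difference between Gstm5 and Gstm7 was 0.17 (exact permutation p = 0.0801). The shares per kb differ by construction, since counts are divided by exon length, and the table of primary alignments keeps reads on overlapping genes. The cause of the other changes was not tested. All tested genes called numbered 1705, beside 2244 with DESeq2, 1668 with limma-voom and 1199 to 1865 without 1 mouse. No paired analysis was made, since the diets were given to separate mice and the labels pair no mice between diets. Depth limits little here, as the lowest member, Gstm5, had 259 to 492 reads per mouse. Reads lost to shared sequence in Gstm1, Gstm2, Gstm3 and Gstm6 were not recovered.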

Other observations

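The spread of the members among the control mice ran in nearly the same order as their diet difference. The coefficient of variation in the control mice was 47.8% in Gstm3, 34.1% in Gstm2, 28.2% in Gstm1, 19.4% in Gstm6, 17.2% in Gstm4, 10.1% in Gstm7 and 9.31% in Gstm5. Over the 7 members, which are not independent, its Spearman correlation with the log2 fold change was 0.89. Both quantities use the level in the same control mice, so they are linked in part by construction. The highest control mouse had 3.48 times the Gstm3 level of the lowest, and the highest BIBB-515 mouse had 1.56 times that of the lowest. In the BIBB-515 mice the coefficients were 16.1% for Gstm3 and 8.63% to 13.0% for the other members.

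Cyp2b10 was also uneven among the control mice, but its order of mice was not that of the family. Control mouse 2 had the highest Cyp2b10 level, 64.9 CPM, and a Gstm3 level of 43.5 CPM, below the group's median of 51.4 CPM, while control mouse 3 had 47.0 CPM of Cyp2b10 and the highest Gstm3 level, 109.7 CPM. After removal of each diet's mean, Gstm3 had a Pearson correlation over the 12 mice of 0.80 with Ugdh, 0.47 with Cyp2b10, 0.64 with Nfe2l2 and -0.24 with Cyp3a11. Other genes of the same lists differed widely. The tested classic NRF2 targets ran from -0.35 in Gclm to 0.80 in Ugdh. Those of CAR and PXR ran from -0.28 in Por to 0.58 in Cyp2c55, and the regulators from -0.53 in Nr1i3 to 0.64 in Nfe2l2. The median over all tested genes outside the family was 0.001. These correlations share libraries and depth and were picked from 62 genes after their values were seen.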
